A study of Mus musculus with 7 samples.

Results

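The genes described here make cholesterol and fatty acids or carry sterols out of the cell, and they were measured in mouse glioma cells of successive transplant passages. The list held 37 genes, chosen by name. For each gene, array probes whose annotation gave that symbol alone were taken, and the brightest of them on average over the 7 arrays stood for the gene. In this way 35 of the 37 genes were found, among 18193 genes in all, through 77 probes. Nr1h2 and Soat1 matched no probe by this rule, so their levels are not analysed here. All 35 genes passed the filter on dim probes and were among the 14453 genes tested.

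The samples came from gliomas of early onset and low grade that had been induced by overexpressing the growth factor PDGF-B with EGFP, a green fluorescent protein, in cells of the C57/Bl6 strain. Secondary gliomas (n = 4) grew in NOD/SCID mice grafted with primary tumour cells, and tertiary gliomas (n = 3) grew in NOD/SCID mice grafted with cells of a secondary glioma. NOD/SCID mice lack functional B and T lymphocytes and keep their myeloid cells, and both groups share the transgene, the strain of the tumour cells and the host strain. Tumours were taken at the onset of symptoms, dissociated with trypsin and sorted for EGFP, and the sources used here give no age for the mice. Each sample is labelled a biological replicate, and no label ties it to a tumour of origin or a host animal, so p-values measure only the spread between these samples.

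Levels are log2 values on Affymetrix mouse arrays, with array medians between 5.57 and 5.64. A difference of 1 is a doubling, and levels of different genes cannot be ranked because each probe binds with its own strength. Oligodendrocyte precursor markers, which PDGF-driven gliomas are known to carry, had mean levels of 10.07 to 10.54 in secondary and 10.16 to 10.57 in tertiary gliomas, and 0 of 10 passed the test. At an unadjusted p under 0.05 over all genes, 1755 genes were higher and 1689 lower. Markers of microglia and macrophages were present in the sorted cells: their mean level was 10.18 to 10.92 in secondary and 6.06 to 6.90 in tertiary gliomas, and 18 of 18 fell, with a median log2 fold change of -4.15. Over all genes tested, 6.33% were called lower. None of these 18 markers lay below the dim filter, a log2 value of 3.99, when averaged over the arrays, which include the high secondary samples. In tertiary gliomas 1 to 3 Itgam lay below it, at 3.05, 3.18 and 2.86. Mrc1 did so in tertiary gliomas 2 and 3 (3.74 and 3.88) and Cd14 in tertiary glioma 1 (3.40), so the size of these falls is uncertain. Tertiary glioma 1 stood apart from tertiary gliomas 2 and 3, and leaving it out raised the number of genes called higher from 151 to 781. Secondary glioma 3 had the highest microglia and macrophage marker mean, and among the members it lay at an edge of its group more often than the other secondary samples, as described with each role. Myelin markers of oligodendrocytes fell in 3 of 8 cases, with a median log2 fold change of -1.62. Their mean level was 8.10 to 8.96 in secondary and 6.90 to 7.15 in tertiary gliomas, without overlap. Of the astrocyte markers 0 of 9 passed, with a median of -0.47.

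Cholesterol is built from acetyl-CoA through mevalonate, the isoprenoids and squalene, and the ring sterol lanosterol is then trimmed to cholesterol. When sterols in the endoplasmic reticulum run low, the escort protein SCAP carries SREBP transcription factors to the Golgi, where they are cleaved and released to switch on the synthesis genes. When sterols are plentiful, oxysterols activate the LXR nuclear receptors, which switch on the exporters ABCA1 and ABCG1, apolipoprotein E and the ubiquitin ligase MYLIP. In brain, cholesterol is made locally, and glial cells pass it on in apolipoprotein E particles.

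The question was whether the level of these genes differed between tertiary and secondary gliomas. In tertiary gliomas 3 of the 35 genes were called higher and 3 lower at an adjusted p under 0.05 in limma, against a background of 1.04% of all genes called higher and 6.33% called lower. The 3 higher genes were the sterol enzymes Fdps and Cyp51 and the sterol carrier Stard4, and the 3 lower genes were the efflux genes Abca1, Mylip and Apoe. Median log2 fold changes, tertiary minus secondary, were 0.63 over the 17 sterol synthesis enzymes, 0.34 over 5 genes of sterol sensing and transport, 0.21 over 8 fatty acid synthesis genes and -1.95 over 5 efflux genes, beside 0.09 over all genes tested. With any single sample left out, the falls of Mylip and Apoe were still called, and that of Abca1 was called only without tertiary glioma 1. The 3 rises were all lost without secondary glioma 1, 2 or 3 or without tertiary glioma 2 or 3, when 0 members were called higher, and 5 were called higher without tertiary glioma 1. With 2 samples left out together, secondary glioma 3 and tertiary glioma 1, 7 members were called higher and 4 lower.

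**Figure D1:**
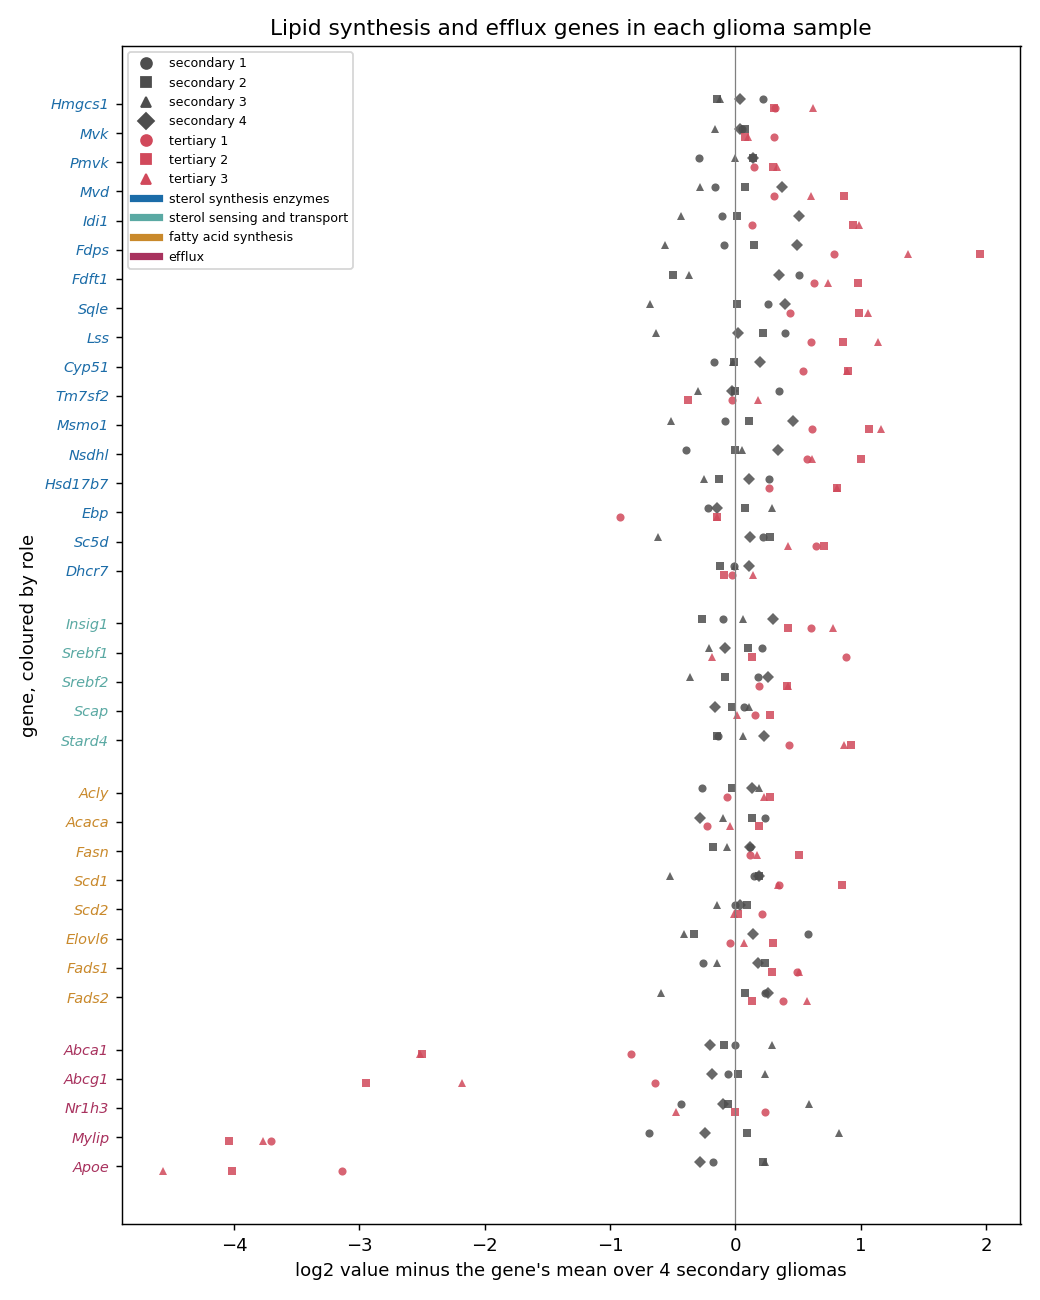
Each point is 1 sample's log2 value for a gene minus the mean of the 4 secondary gliomas, with secondary samples in grey and tertiary samples in red. Tertiary samples lie to the right for most sterol synthesis enzymes and to the left for 4 of the 5 efflux genes, and tertiary glioma 1 lies closest to the secondary samples for Abca1 and Abcg1.

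Among the 17 sterol synthesis enzymes, 2 rose, 0 fell and 15 did not pass, beside 1.04% of all genes called higher and 6.33% called lower. The log2 fold change was above 0 in 15 of the 17, beside 60.6% of all genes tested. In 10 of the 17 every tertiary sample lay above every secondary sample, where 10.8% of all genes tested did so, and in 0 of the 17 every tertiary sample lay below. At an unadjusted p under 0.05, 12 of the 17 were higher, beside 12.1% of all genes. The count of 10 separated enzymes was between 10 and 13 when any 1 sample was left out, and the matching share of all genes ranged from 12.4% to 24.9%. The fall of the microglia and macrophage markers, from 10.18 to 10.92 down to 6.06 to 6.90, ran along with these values, and its part in them was not tested.

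Promoter sequence is shown for a set of these enzymes because SREBP proteins act together with the factors NF-Y and Sp1 at such promoters. The stretches are the 200 bases before the annotated start of Hmgcs1 (chr13:119690151-119690350, plus strand), Cyp51 (chr5:4104698-4104897, minus strand), Msmo1 (chr8:64733579-64733778, minus strand), Nsdhl (chrX:72918321-72918520, plus strand) and Ebp (chrX:8193513-8193712, minus strand), from RefSeq on build GRCm38.p6. Each reads 5′ to 3′ along its gene. Capitals mark the sterol response element core TCACNCCAC and the NF-Y box CCAAT, or their reverse complements. Hmgcs1 is shown as the only one of the 29 members searched that held an exact match to the sterol core. Elements that depart from these letters were not searched for and are not marked. Cyp51 is shown as a called gene, Msmo1 and Nsdhl as separated genes with repeated CCAAT boxes, and Ebp as an enzyme whose level did not follow.
Hmgcs1: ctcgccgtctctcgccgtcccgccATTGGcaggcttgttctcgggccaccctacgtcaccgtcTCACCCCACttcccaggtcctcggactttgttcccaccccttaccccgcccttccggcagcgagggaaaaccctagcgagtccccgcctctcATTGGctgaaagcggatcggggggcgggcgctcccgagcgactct
Cyp51: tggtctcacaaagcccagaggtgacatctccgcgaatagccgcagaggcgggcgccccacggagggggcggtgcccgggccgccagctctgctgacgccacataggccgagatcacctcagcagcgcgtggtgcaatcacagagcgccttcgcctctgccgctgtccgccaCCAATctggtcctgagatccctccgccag
Msmo1: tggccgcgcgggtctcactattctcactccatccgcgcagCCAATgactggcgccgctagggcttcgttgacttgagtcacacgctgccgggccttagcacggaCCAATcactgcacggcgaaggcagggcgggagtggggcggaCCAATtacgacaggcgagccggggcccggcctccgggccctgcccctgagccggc
Nsdhl: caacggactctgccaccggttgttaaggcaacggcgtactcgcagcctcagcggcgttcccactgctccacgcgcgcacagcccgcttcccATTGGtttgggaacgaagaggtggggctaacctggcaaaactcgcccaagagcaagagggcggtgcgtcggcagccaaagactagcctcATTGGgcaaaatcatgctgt
Ebp: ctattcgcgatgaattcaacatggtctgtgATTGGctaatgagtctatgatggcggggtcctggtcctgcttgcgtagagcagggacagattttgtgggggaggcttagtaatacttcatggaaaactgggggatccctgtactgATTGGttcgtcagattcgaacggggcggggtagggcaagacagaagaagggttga

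Promoter windows of 300 bases, 250 before and 50 after the start, were found for 29 of the 37 genes, 14 of them sterol synthesis enzymes. Searched on both strands, CCAAT stood in a window of all 14 of these enzymes, beside 41.1% of 27025 genes, and the Sp1 box GGGCGG in 13 of the 14, beside 38.2%. CCAAT was found in 3 of 4 sensing and transport genes, 2 of 5 fatty acid genes and 2 of 6 efflux genes. The 6 efflux genes include Nr1h2 and Soat1, whose levels were not measured here, and Soat1 is among the 2 with CCAAT. Only exact matches were counted, so a missing match does not show that a gene lacks a working element. The core TCACNCCAC was in 1 of the 14, Hmgcs1, and in 1.44% of all genes. The E-box CACGTG was in 3 of the 14 and in 8.09% of all genes, and the LXR element DR4, which is AGGTCA repeated in the same direction after 4 free bases, was in 0 of the 6 efflux genes with a window and in 0.0148% of all genes. In the members' windows the only overlapping matches were a pair of CCAAT boxes of Fasn. The enzymes Dhcr7, Tm7sf2 and Ebp, with log2 fold changes of 0.01, -0.08 and -0.41, held CCAAT as well. So did Mvk and Pmvk, at 0.16 and 0.26, whose intervals also included 0.

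The pathway opens with Hmgcs1, the enzyme that condenses acetoacetyl-CoA with acetyl-CoA. Its log2 level was 11.08, 10.71, 10.74 and 10.90 in secondary gliomas 1 to 4 and 11.18, 11.17 and 11.48 in tertiary gliomas 1 to 3. The groups did not overlap, with tertiary glioma 3 highest, and the log2 fold change was 0.42 ± 0.15 (SE, n = 4 and 3; 95% confidence interval 0.07 to 0.77; limma adjusted p = 0.152). All 5 probes of Hmgcs1 had the same sign, between 0.42 and 0.71. The mevalonate kinase Mvk, at 0.16 (interval -0.14 to 0.46), the phosphomevalonate kinase Pmvk, at 0.26 (-0.09 to 0.61), and the decarboxylase Mvd, at 0.59 (0.12 to 1.06), act next, and none of the 3 passed. Idi1, which interconverts the isoprenoid building blocks, was at 0.69 (0.03 to 1.35), with tertiary glioma 1 below secondary glioma 4.

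Fdps, the farnesyl diphosphate synthase at the branch point between sterols and other isoprenoids, rose. Its level was 6.64, 6.88, 6.17 and 7.22 in secondary gliomas 1 to 4 and 7.52, 8.68 and 8.11 in tertiary gliomas 1 to 3. All tertiary samples lay above all secondary ones, with tertiary glioma 2 highest and secondary glioma 3 lowest. The log2 fold change was 1.37 ± 0.33 (SE, n = 4 and 3), or 2.59-fold, with a limma adjusted p of 0.0454. Leaving out secondary glioma 1, 2 or 3 gave an adjusted p of 0.0993, 0.0911 or 0.0967, and leaving out tertiary glioma 2 or 3 gave 0.145 or 0.134. A second Fdps probe lay below the dim filter, and with both probes averaged the value was 0.68 (adjusted p = 0.0546). Fdps did not pass either with no dim filter (0.0616) or with every probe tested on its own (0.0508).

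Fdft1, the squalene synthase, had levels of 8.33, 7.32, 7.45 and 8.17 in secondary and 8.45, 8.80 and 8.56 in tertiary gliomas, without overlap (log2 fold change 0.78 ± 0.27 SE, limma adjusted p = 0.138). That probe may also pick up related transcripts, and a gene-specific probe gave 0.84. Of 4 Fdft1 probes 2 lay above the dim filter, and with all 4 averaged the log2 fold change was 0.41 (limma adjusted p = 0.118). Sqle, the squalene epoxidase that is rate-limiting in the later pathway, was at 8.12, 7.87, 7.18 and 8.26 in secondary and 8.30, 8.85 and 8.92 in tertiary gliomas. Tertiary glioma 1 lay just above the highest secondary sample, and the log2 fold change was 0.83 ± 0.29 (adjusted p = 0.132). Lss, which closes squalene epoxide into lanosterol, was at 8.88, 8.70, 7.85 and 8.50 and then at 9.08, 9.34 and 9.62. Its 3 probes gave between 0.86 and 1.21, and the chosen one had an adjusted p of 0.101.

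Cyp51, the demethylase that takes up lanosterol, rose. Its level was 8.77, 8.93, 8.92 and 9.14 in secondary gliomas 1 to 4 and 9.48, 9.84 and 9.83 in tertiary gliomas 1 to 3, so the groups were apart and secondary samples varied little. The log2 fold change was 0.77 ± 0.15 (SE, n = 4 and 3), or 1.71-fold, with a limma adjusted p of 0.0216. The other Cyp51 probes gave 1.05 and 1.63, and neither was called with every probe tested on its own (limma adjusted p = 0.0755 and 0.0652). Leaving out secondary glioma 1, 2 or 3 gave an adjusted p of 0.0507, 0.0647 or 0.0507, and leaving out tertiary glioma 2 or 3 gave 0.0916 or 0.0890.

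The enzymes that next remove methyl groups from the sterol ring gave values of similar size that missed the threshold. Msmo1, the methylsterol monooxygenase, was at 7.01, 7.20, 6.58 and 7.55 in secondary and 7.70, 8.16 and 8.25 in tertiary gliomas, without overlap. Its log2 fold change was 0.95 ± 0.25 (SE, n = 4 and 3; limma adjusted p = 0.0638), and the adjusted p was 0.0400 without tertiary glioma 1 and 0.0455 without secondary glioma 4. A second Msmo1 probe gave 0.04, with tertiary glioma 1 below every secondary sample, and averaging the probes gave 0.50 (adjusted p = 0.167). Nsdhl, the decarboxylating sterol dehydrogenase, was at 6.62, 7.01, 7.06 and 7.35 and then at 7.58, 8.01 and 7.62, and its log2 fold change was 0.72 ± 0.20 (adjusted p = 0.0763). For Hsd17b7, the ketosteroid reductase of this step, tertiary glioma 1 equalled the highest secondary sample at 7.21, and the chosen probe, which can bind related transcripts, gave 0.63 (adjusted p = 0.108). Of its other probes, tested among all named probes, those at 0.95 and 1.16 were called (adjusted p = 0.0317 and 0.0398), and without tertiary glioma 1 the chosen probe was called too (0.0338).

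The last enzymes did not move as a block. Sc5d, a sterol desaturase, was at 7.26, 7.32, 6.42 and 7.16 in secondary and 7.68, 7.75 and 7.46 in tertiary gliomas, apart by a small margin (log2 fold change 0.59, interval 0.04 to 1.13). Dhcr7, the final reductase, was at 9.35, 9.24, 9.36 and 9.47 and then at 9.33, 9.27 and 9.50, and the groups lay on top of each other. Its log2 fold change was 0.01, with an interval of -0.29 to 0.30. Tm7sf2, a sterol reductase that acts after Cyp51, gave -0.08 (interval -0.55 to 0.38), and Ebp, the sterol isomerase, -0.41 (interval -0.94 to 0.13). Ebp was lowest in tertiary glioma 1 at 6.64, while both other tertiary samples were at 7.41, inside the secondary range of 7.34 to 7.85.

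**Figure D2:**
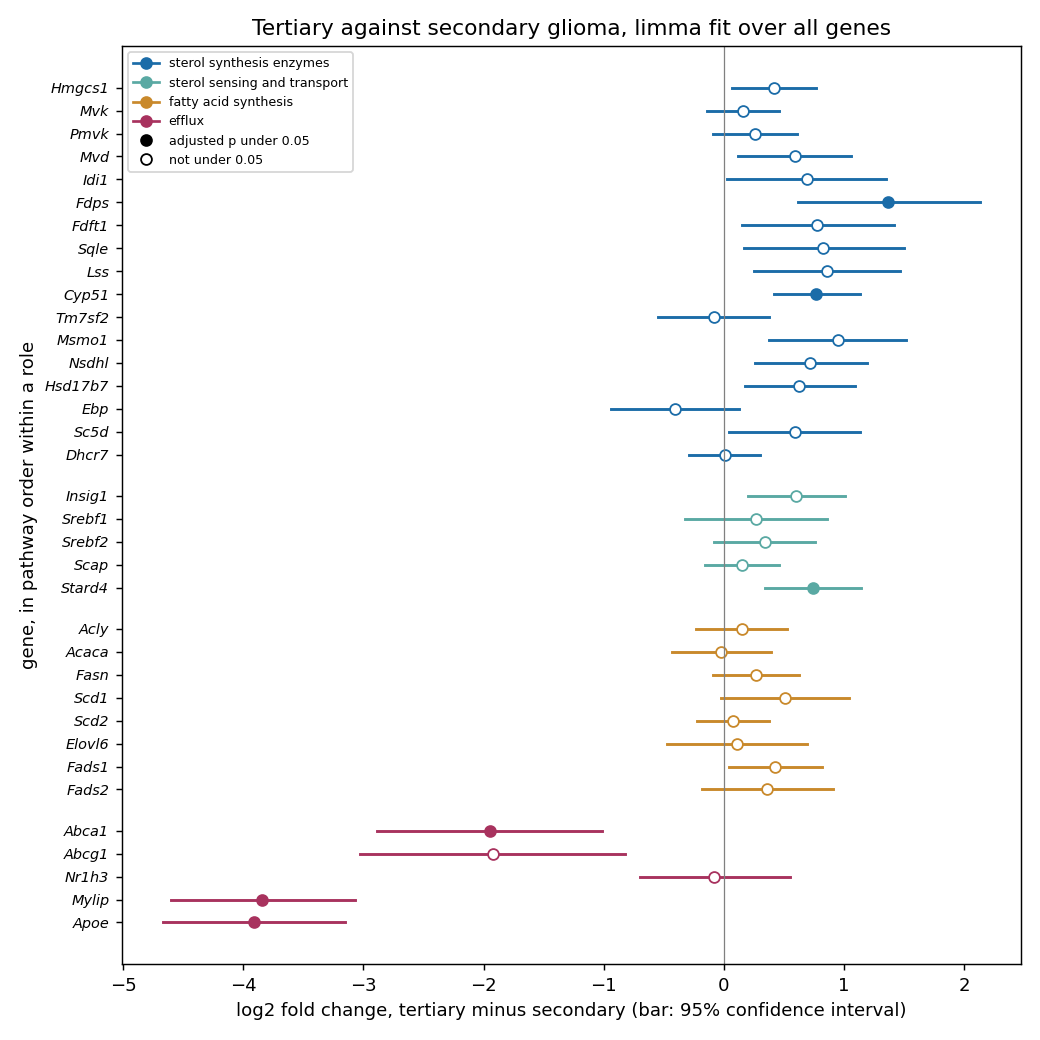
Log2 fold change, tertiary minus secondary, for the 35 genes in pathway order within each role; bars are 95% confidence intervals from limma and filled circles have an adjusted p under 0.05. Intervals above 0 run from Mvd to Cyp51 in the sterol block and include Hmgcs1, Msmo1, Nsdhl, Hsd17b7 and Sc5d. Those of Mvk, Pmvk, Tm7sf2, Ebp and Dhcr7 span 0.

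Of the 5 genes of sterol sensing and transport, 1 rose, 0 fell and 4 did not pass, beside 1.04% of all genes called higher and 6.33% called lower. All 5 log2 fold changes were above 0, as were 60.6% of those of all genes tested. In 2 of the 5, Stard4 and Insig1, every tertiary sample lay above every secondary one, beside 10.8% of all genes tested. Stard4, a carrier that moves sterol between membranes, was at 6.55, 6.54, 6.75 and 6.92 in secondary gliomas 1 to 4 and 7.12, 7.61 and 7.56 in tertiary gliomas 1 to 3. The groups did not overlap, and the log2 fold change was 0.74 ± 0.17 (SE, n = 4 and 3), or 1.67-fold, with a limma adjusted p of 0.0436. All 3 probes had this sign, but 0 were called when each was tested on its own (0.0530 for the chosen one), and averaging them gave 0.87 with an adjusted p of 0.0868. With trended and robust variances the adjusted p was 0.0560. Leaving out secondary glioma 1, 2, 3 or 4 gave an adjusted p of 0.0960, 0.113, 0.0835 or 0.0573, and leaving out tertiary glioma 2 or 3 gave 0.159 or 0.148.

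Insig1 holds SCAP in the endoplasmic reticulum and is itself an SREBP target. It was at 8.94, 8.77, 9.10 and 9.34 in secondary and 9.64, 9.46 and 9.82 in tertiary gliomas. The groups were apart, and the log2 fold change was 0.60 ± 0.17 (SE, n = 4 and 3; limma adjusted p = 0.0858). Srebf2, the SREBP gene best known for cholesterol synthesis, gave 0.34 (interval -0.08 to 0.76), and the escort Scap 0.15 (-0.16 to 0.46). Srebf1, whose products favour fatty acid genes, gave 0.27 (interval -0.32 to 0.86), which rested on tertiary glioma 1 at 8.41. Without that sample it was -0.03, and tertiary gliomas 2 and 3, at 7.66 and 7.34, lay inside the secondary range of 7.32 to 7.74.

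None of the 8 fatty acid synthesis genes passed the limma test in either direction, and at an unadjusted p under 0.05 there was 1 higher, Fads1, a share near the 12.1% of all genes. In 2 of the 8, Scd1 and Fads1, every tertiary sample lay above every secondary one, beside 10.8% of all genes. Fads1, a desaturase of polyunsaturated fatty acids, was at 9.78, 10.28, 9.89 and 10.22 in secondary and 10.53, 10.33 and 10.55 in tertiary gliomas (log2 fold change 0.43, interval 0.04 to 0.82, adjusted p = 0.173). Scd1, the stearoyl-CoA desaturase, was at 8.89, 8.93, 8.22 and 8.93 and then at 9.09, 9.59 and 9.08. Secondary glioma 3 was far below the other secondary samples, and the log2 fold change was 0.51 (interval -0.02 to 1.04), or 0.33 without that sample.

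The intervals of the remaining 6 fatty acid genes all included 0. Acly, which makes cytosolic acetyl-CoA from citrate, was at 0.15 (interval -0.23 to 0.53), and Acaca, the carboxylase that commits acetyl-CoA to fatty acids, at -0.02 (-0.43 to 0.39). The chosen Acly probe may also pick up related transcripts, and the 4 Acly probes above the dim filter gave between -0.02 and 0.26. A second Acaca probe had the other sign, at 0.16. The synthase Fasn was at 0.27 (-0.09 to 0.63), the elongase Elovl6 at 0.11 (-0.47 to 0.69) and the desaturase Fads2 at 0.36 (-0.18 to 0.91). Scd2, the stearoyl-CoA desaturase typical of brain, had levels of 11.24, 11.33, 11.09 and 11.28 in secondary and 11.45, 11.26 and 11.23 in tertiary gliomas. Its groups overlapped, at 0.08 (-0.22 to 0.38). Over all their probes Elovl6 gave between 0.11 and 0.33, Fads2 between 0.03 and 0.38 and Scd2 between 0.08 and 0.21.

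Among the efflux genes, 3 of 5 tested fell, 0 rose and 2 did not pass, beside 6.33% of all genes called lower and 1.04% called higher. In 4 of the 5 every tertiary sample lay below every secondary one, where 11.2% of all genes tested did so. The count of 4 held when any 1 sample was left out, and the matching share of all genes ranged from 11.8% to 16.7%. In sorted cells measured together, fewer cells of a type and less RNA per cell cannot be told apart. Microglia and macrophages are known to express Apoe and Abca1, and the means of their markers were 10.18 to 10.92 in secondary and 6.06 to 6.90 in tertiary gliomas. Astrocytes, another source of apolipoprotein E, had marker means of 7.18 to 8.26 and 6.77 to 7.59. The part of either in the efflux values was not tested.

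Apoe encodes the main lipid-carrying apolipoprotein of brain. Its level was 11.48, 11.88, 11.90 and 11.38 in secondary gliomas 1 to 4 and 8.52, 7.64 and 7.09 in tertiary gliomas 1 to 3. The gap between the groups was wider than the spread within either, and tertiary glioma 1 was the highest of the 3. The log2 fold change was -3.91 ± 0.33 (SE, n = 4 and 3), or 15.0-fold lower, with a limma adjusted p of 0.000247. It ranged from -4.30 to -3.58 when 1 sample was left out.

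Mylip, the ubiquitin ligase that sends lipoprotein receptors to degradation, fell. Its level was 6.93, 7.71, 8.45 and 7.38 in secondary and 3.91, 3.58 and 3.85 in tertiary gliomas. All 3 tertiary values lay below 3.99, the dim filter, which the gene passed through its secondary samples, so the size of the fall is uncertain. The log2 fold change was -3.84 ± 0.33 (SE, n = 4 and 3; limma adjusted p = 0.000286), from the only probe of this gene.

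Abca1, which exports cholesterol to apolipoproteins, was at 10.99, 10.90, 11.28 and 10.79 in secondary gliomas 1 to 4 and 10.16, 8.49 and 8.47 in tertiary gliomas 1 to 3. The groups were apart, but tertiary glioma 1 lay nearer to the secondary samples than to the other tertiary ones. The log2 fold change was -1.95 ± 0.41 (SE, n = 4 and 3; limma adjusted p = 0.0266), and all 3 probes were called when probes were tested on their own. With each gene's own variance the adjusted p was 0.133. It was -2.51 without tertiary glioma 1. Leaving out secondary glioma 1, 2, 3 or 4 gave an adjusted p of 0.0622, 0.0674, 0.0779 or 0.0602, and leaving out tertiary glioma 2 or 3 gave 0.106 or 0.101.

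Abcg1, which exports cholesterol to lipoprotein particles, was at 11.02, 11.10, 11.32 and 10.89 and then at 10.44, 8.13 and 8.90, again with tertiary glioma 1 nearest to the secondary samples. Its log2 fold change of -1.92 ± 0.48 (SE, n = 4 and 3) missed the threshold with a limma adjusted p of 0.0529. Without tertiary glioma 1 it was -2.57, with an adjusted p of 0.00138. A second Abcg1 probe gave -1.21 (adjusted p = 0.116 with every probe tested on its own), and on it tertiary glioma 1 equalled secondary glioma 1 at 6.92, so the groups touched. The microglia and macrophage marker mean was 6.62, 6.90 and 6.06 in tertiary gliomas 1 to 3, and its part in these values was not tested. Nr1h3, the LXR alpha gene, was at 5.78, 6.15, 6.80 and 6.11 in secondary and 6.45, 6.21 and 5.74 in tertiary gliomas. Its groups overlapped, and its log2 fold change was -0.08, with an interval of -0.70 to 0.55.

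**Figure D3:**
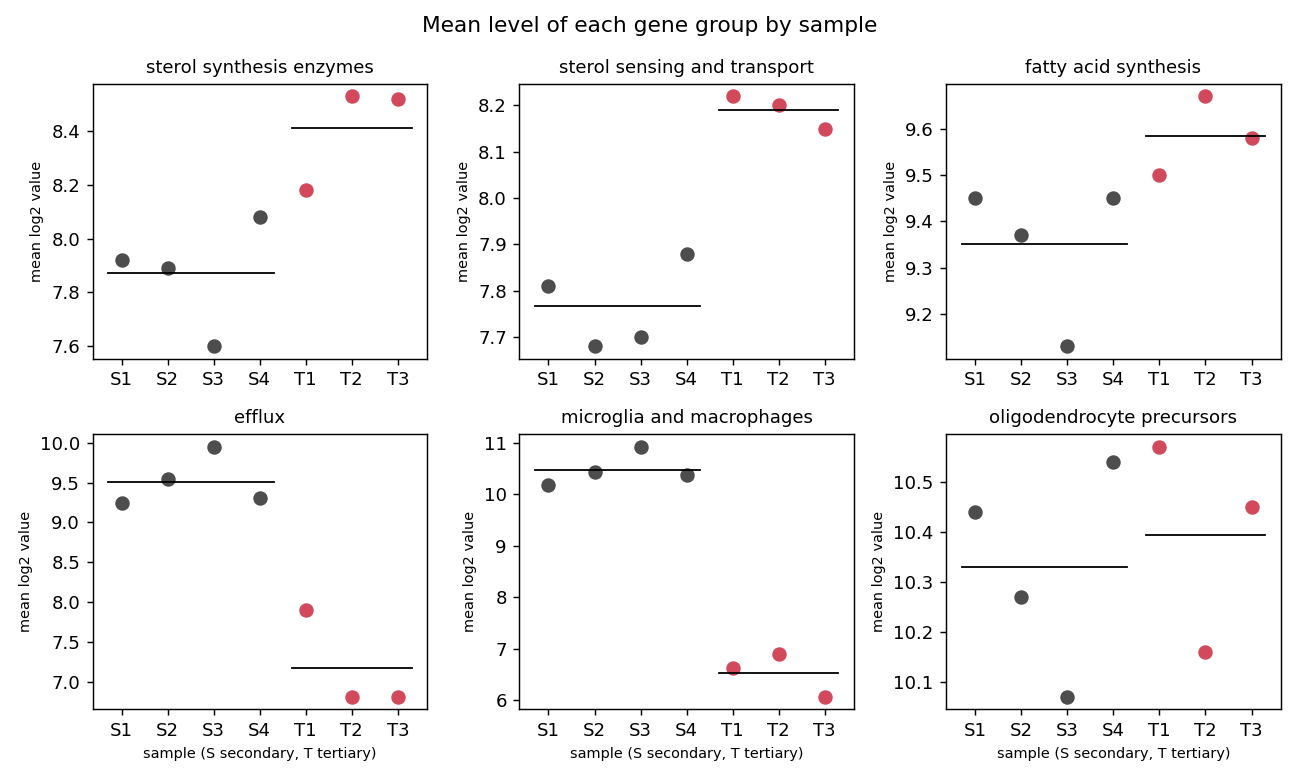
Mean log2 value of each gene group in each sample (S1 to S4 secondary, grey; T1 to T3 tertiary, red), with the group mean as a line; the vertical scales differ between panels. Efflux means lie between 9.24 and 9.95 in secondary and between 6.81 and 7.90 in tertiary samples, with T1 highest among the tertiary samples, while the mean of oligodendrocyte precursor markers overlaps between the groups.

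Samples differed within groups in a way that some of the roles shared. Secondary glioma 3 had the lowest value of the 4 secondary samples in 10 of the 17 sterol enzymes and 4 of the 8 fatty acid genes, and the highest in all 5 efflux genes. It also had the highest microglia and macrophage marker mean of the secondary samples, 10.92. Tertiary glioma 1 was lowest of the 3 tertiary samples in 12 of the 17 sterol enzymes and 4 of the 8 fatty acid genes, and highest in all 5 efflux genes. Its microglia and macrophage marker mean, 6.62, lay between those of tertiary glioma 2, 6.90, and tertiary glioma 3, 6.06. The mean over the 17 sterol enzymes was 7.92, 7.89, 7.60 and 8.08 in secondary gliomas 1 to 4 and 8.18, 8.53 and 8.52 in tertiary gliomas 1 to 3. Over the fatty acid genes it was 9.45, 9.37, 9.13 and 9.45 and then 9.50, 9.67 and 9.58, so the gap between the groups was smaller than the range of the secondary samples. Over the 5 genes of sensing and transport the mean was 7.81, 7.68, 7.70 and 7.88 and then 8.22, 8.20 and 8.15. There tertiary glioma 1 was highest and secondary glioma 2 lowest.

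Further genes of the same pathways were taken from lists made by gene function, with earlier results of these data known. Of 10 other genes of sterol synthesis and sensing tested, 0 passed in limma in either direction, and Lbr, a sterol reductase of the nuclear envelope named after its value was seen, was at 0.73 (interval 0.00 to 1.46). Lbr was called when tertiary glioma 1 was left out. Of 29 other fatty acid genes, 2 fell and 0 rose, a share near the 6.33% of all genes called lower, with a median log2 fold change of 0.06. Mlxipl, the carbohydrate response factor ChREBP, was at 6.19, 7.78, 8.61 and 7.37 in secondary and 2.55, 2.84 and 2.19 in tertiary gliomas (-4.96 ± 0.51 SE, adjusted p = 0.000737 in limma). Its tertiary values lay below the dim filter, which the gene passed through its secondary samples, so the size of the fall is uncertain. Thrsp, a lipogenic regulator, changed by -1.71 ± 0.23 (SE, adjusted p = 0.00291 in limma), from 7.62 to 8.12 down to 5.68 to 6.56.

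Of 29 other genes of sterol efflux, uptake and storage tested, 14 fell, 1 rose and 14 did not pass, with a median log2 fold change of -0.89, against 6.33% of all genes called lower and 1.04% called higher. Between 11 and 15 fell when 1 sample was left out. The 6 with the lowest p, all lower, were the apolipoproteins Apoc1 (log2 fold change -4.89 ± 0.27 SE, adjusted p = 7.92e-05 in limma) and Apod (-2.87 ± 0.18), the transporter Abca9 (-4.76 ± 0.34), the lysosomal cholesterol carrier Npc2 (-1.59 ± 0.13), the phospholipid transfer protein Pltp (-1.89 ± 0.17) and the lipoprotein lipase Lpl (-4.02 ± 0.37). Apoc1 was at 11.02, 10.96, 10.33 and 10.12 in secondary and 5.80, 5.98 and 5.38 in tertiary gliomas, so the groups were far apart. Npc2 was at 11.63, 11.79, 11.90 and 11.76 and then at 10.26, 10.24 and 10.04, with a narrow spread in both groups. Abca9 lay below the dim filter in every tertiary sample, between 3.60 and 3.93, and passed it through its secondary samples, so the size of its fall is uncertain.

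The 1 gene of this list that rose, named after its value was seen, was Lrp8, an apolipoprotein E receptor of neural cells, at 6.86, 7.25, 6.67 and 7.32 in secondary and 7.64, 7.99 and 7.92 in tertiary gliomas. Its log2 fold change was 0.83 ± 0.20 (SE, n = 4 and 3; limma adjusted p = 0.0447), and the call was lost in every fit that left out 1 sample other than tertiary glioma 1. The scavenger receptors Msr1 (-2.94) and Cd36, Ch25h, which makes an oxysterol (-3.26), and the LXR partner Rxra (-1.27) were among the genes that fell and were named after their values were seen. Cd36 lay below the dim filter in every tertiary sample, at 3.90, 3.18 and 2.98, so the size of its fall is uncertain. The receptors Vldlr (0.52, adjusted p = 0.231) and Lrp1 (-0.61, adjusted p = 0.281), also named after their values were seen, did not pass. Macrophages are known to express Msr1, Cd36, Lpl, Ch25h and Apoc1, and the microglia and macrophage marker means of 10.18 to 10.92 and 6.06 to 6.90 fell in the same samples. Their part in these values was not tested.

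**Figure D4:**
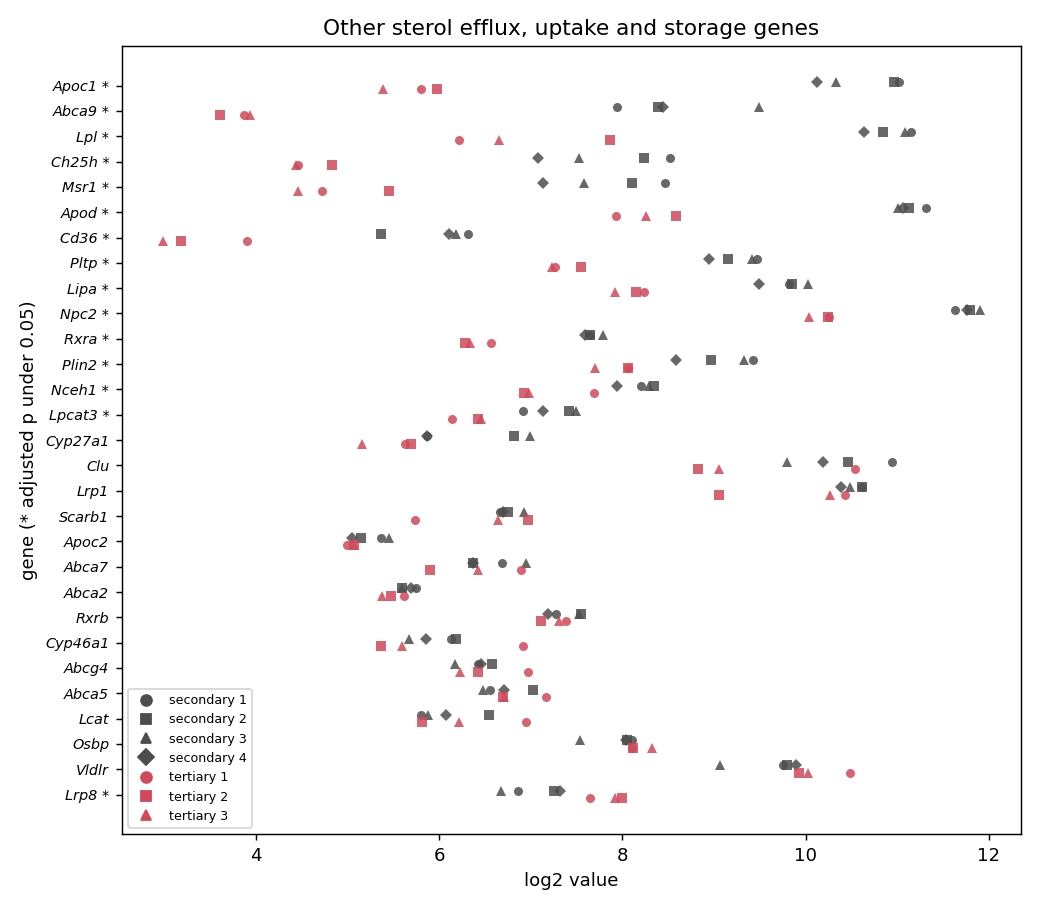
Log2 value in every sample for the 29 other genes of sterol efflux, uptake and storage, ordered by log2 fold change, with secondary samples in grey and tertiary samples in red; levels of different genes are not comparable. The 14 genes that fell are at the top and Lrp8, which rose, is at the bottom.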

How the data were processed

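Total RNA (30 ng) of 7 flow-sorted glioma samples was amplified and labelled for Affymetrix mouse arrays, per the labels' protocols. The authors deposited log2 expression values computed with RMA, per the submitters' processing notes. RMA corrects background, equalizes array distributions and summarizes probes; no version is stated, and the base of the log was inferred from the range. It hides a shift shared by most genes and compresses dim probes. Detection calls, scan dates and coordinates of probes were not analysed here.

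Of 45101 probes, 34945 had 1 symbol, 932 several, 9160 none listed and 64 were controls. Only probes with 1 symbol were used. The brightest probe on average stood for each gene, and genes below the 25th percentile of all probes (3.99) were left out. Groups were compared with limma 3.58.1 (lmFit, eBayes; R 4.3.3), adjusting p-values by Benjamini-Hochberg over 14453 genes, at a threshold of 0.05. Members, lists and tests were chosen with earlier results of these data known. All members are accounted for; of the further pathway lists, up to 6 called genes with the lowest p are named. Same-numbered samples of the groups were checked for pairing by correlating deviations from group means (0.04, -0.14 and 0.01). These low correlations gave no sign of pairing by number. They cannot exclude a shared tumour of origin, which no label gives. The fit was tested on simulated data of this comparison over 14453 genes: it recovered 58% of the 100 genes given a log2 change of 1 and 93% of the 100 given 2, with 7 false calls. The closest arrays shared 5.39% of probe values. Promoters were searched and figures drawn with Python 3.11.15, pandas 2.3.3 and matplotlib 3.10.9.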

Additional observations from a re-analysis of the deposited data

Results flagged for a closer look

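In 2 of the 35 genes, 1 secondary glioma lay far from the other 3 by Dixon's ratio, which chance gives in about 1 group in 20. Secondary glioma 3 had a Mvk level of 7.16, where the others lay between 7.36 and 7.40, and a Scd1 level of 8.22, where the others lay between 8.89 and 8.93.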

How the results depend on the processing

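The 18 alternatives changed the falls of Apoe and Mylip in no call, and of 630 comparisons of single genes, 556 kept their direction and side of the threshold. The number of members called higher, 3, became 6 at an adjusted p under 0.10, 7 with array weights, 0 with each gene's own variance, 0 with the replicate block, 7 without both secondary glioma 3 and tertiary glioma 1 (chosen after seeing the data), and 0 to 5 when 1 sample was left out. In the same order the 151 genes called higher over the arrays became 437, 668, 29, 61 and 543, and 27 to 781. The 915 called lower became 492 with own variances and 575 with the block. The block used samples 1 to 3 of each group, kept Apoe and Mylip and ended the calls of Abca1, Fdps, Cyp51 and Stard4, and the numbers share no stated origin. The efflux median of -1.95 was -2.49 with both samples left out and -2.57 to -1.68 with 1 left out. The sensing and transport median of 0.34 was 0.43 under the block and 0.22 to 0.50 with 1 sample left out. The fatty acid median of 0.21 was 0.13 without tertiary glioma 2, its lowest, and 0.31 without secondary glioma 1, its highest. Own variances ended the calls of Fdps (adjusted p = 0.163), Cyp51 (0.0545), Stard4 (0.111) and Abca1 (0.133) in limma.

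Genes near 0 changed sign: Acaca (-0.02) was 0.07 with probes averaged, 0.02 with median centring, 0.05 with array weights and 0.04 with both samples left out. Scd2 was -0.01 with array weights and -0.04 with both left out, Srebf1 was -0.11 with both left out, and Dhcr7 was -0.01 after quantile normalization. With 1 sample left out, Acaca ranged from -0.13 to 0.08, Dhcr7 from -0.06 to 0.06, Tm7sf2 from -0.21 to 0.07, Elovl6 from -0.02 to 0.31, Nr1h3 from -0.24 to 0.12 and Srebf1 from -0.03 to 0.50. The cause of these differences was not tested. The number of arrays limits the precision, and changes of log2 1 or less can be missed.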
